A study of Mus musculus with 11 samples.

Results

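The genes described here are 7 genes of the sterol synthesis pathway, namely Hmgcs1, Sqle, Lss, Fdps, Idi1, Insig1 and Srebf2, together with Ch25h. They were chosen by name, and their identifiers were matched in the mouse GRCm38 annotation, the build of all positions given. All 8 were among the 52636 genes listed for every liver and among the 17243 genes with enough counts to be tested. Expression was measured by RNA sequencing of 11 single fetal livers taken at embryonic stage E15.5 from untreated embryos on a C57BL/6N background. There were 3 wild-type (WT) livers, 2 Tnfr1-/- livers (labelled TNFR1KO), 3 Casp8-/- Mlkl-/- livers (Casp8 MLKL dKO) and 3 Casp8-/- Tnfr1-/- livers (Casp8 TNFR1 dKO). The alleles are deletions carried by the whole embryo, so by design both double mutants lack caspase-8 in all cell types. Caspase-8 restrains necroptosis, MLKL carries it out, and TNFR1 is the main receptor for tumor necrosis factor. Casp8-/- Tnfr1-/- embryos were compared with WT embryos, with embryos lacking TNFR1 alone, and with embryos lacking caspase-8 that cannot undergo necroptosis.

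Cells make cholesterol from acetyl-CoA through a chain of enzymes, and the fetal liver is one of the organs that makes it. When membrane sterol is low, the SCAP protein carries SREBP2, the product of Srebf2, to the Golgi, where it is cleaved into a factor that activates the genes of the pathway. INSIG1 holds SCAP back when sterol is plentiful. Ch25h encodes cholesterol hydroxylase, an interferon-stimulated enzyme known mainly from macrophages, whose oxysterol product promotes this retention and so lowers SREBP2 cleavage.

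Total counts ran from 23129212 to 35819339 a liver, with a median of 25733946. Casp8 measured 7.82 to 21.9 CPM (counts scaled by TMM-adjusted library size) in the double mutants and 27.7 to 33.9 in the other livers, and Mlkl 0.730 to 1.22 CPM in Casp8-/- Mlkl-/- livers and 3.68 to 24.6 in the others. Tnfrsf1a, the gene for TNFR1, measured 49.8 and 50.5 CPM in Tnfr1-/- livers and 76.9, 76.0 and 425 in Casp8-/- Tnfr1-/- livers, against 47.1 to 53.4 in WT livers, so its count over all exons does not check the Tnfr1 genotype, which rests on the labels. The hepatocyte markers Alb and Afp were abundant in every liver, at 22881 CPM or more and 21025 CPM or more. A pair of livers stood apart. Casp8-/- Mlkl-/- replicate 1 had a summed level of 12 hepatocyte markers of 242449 CPM, where the other 10 livers had 55285 to 114436. Casp8-/- Tnfr1-/- replicate 3 had Acta1 at 534 CPM and Xist at 3409 CPM, where no other liver passed 6.07 and 0.570, and held the highest or lowest value of 32.3% and 38.8% of all genes tested. Results that rest on these livers are given with and without them. The labels do not give litters, so the p-values measure the spread between these livers.

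The upstream sequences of 4 of the genes are shown, 3 because they hold motifs through which the pathway is known to be regulated and Ch25h because its level turned out to differ most. They come from RefSeq promoters on build GRCm38.p6, which held 6 of the 8 genes (all but Sqle and Fdps), and each is cut before the first annotated exon. Capitals mark a sterol regulatory element (TCACNCCA), a CCAAT box (CCAAT, bound by NF-Y) or an E-box (CACGTG), each searched on both strands, so that a CCAAT box on the other strand reads ATTGG.
Hmgcs1, chr13:119690101-119690350, plus strand: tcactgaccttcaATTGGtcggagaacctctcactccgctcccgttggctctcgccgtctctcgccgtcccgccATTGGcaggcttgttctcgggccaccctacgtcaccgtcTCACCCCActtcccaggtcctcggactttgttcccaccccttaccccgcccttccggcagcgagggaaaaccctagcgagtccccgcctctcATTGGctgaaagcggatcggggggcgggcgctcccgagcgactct
Srebf2, chr15:82147019-82147180, plus strand: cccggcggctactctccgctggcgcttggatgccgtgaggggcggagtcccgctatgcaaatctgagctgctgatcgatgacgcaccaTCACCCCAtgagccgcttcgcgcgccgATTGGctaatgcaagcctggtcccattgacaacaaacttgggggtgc
Insig1, chr5:28071162-28071362, plus strand: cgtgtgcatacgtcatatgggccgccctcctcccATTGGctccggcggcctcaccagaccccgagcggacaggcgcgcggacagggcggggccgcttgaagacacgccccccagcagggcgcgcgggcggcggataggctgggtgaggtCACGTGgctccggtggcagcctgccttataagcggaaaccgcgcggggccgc
Ch25h, chr19:34475165-34475398, minus strand: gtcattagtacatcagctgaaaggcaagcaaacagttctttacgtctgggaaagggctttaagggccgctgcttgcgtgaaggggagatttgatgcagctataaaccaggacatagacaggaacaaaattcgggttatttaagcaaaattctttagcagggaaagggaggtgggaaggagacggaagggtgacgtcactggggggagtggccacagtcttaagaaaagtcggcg
The sterol regulatory element was found in Hmgcs1 and in Srebf2, 2 of the 6 members, beside 4.36% of 32851 promoters of the same length. Among 14 other cholesterol synthesis genes with a promoter it was found in 1, Msmo1. A CCAAT box was found in 5 of the 6 members and in 13 of those 14 genes, beside 37.4% of all promoters. An E-box was found in 1 of the 6 members and in 3 of the 14, beside 7.15% of all promoters. The Ch25h window had no match to any of these letters, nor to those of an interferon-stimulated response element (in 3.44% of all promoters) or a gamma-activated site (TTCNNNGAA, in 8.30%). These matches are descriptions of the letters in the windows.

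With all livers fitted, Ch25h was the only one of the 8 genes called different in any of the 5 comparisons, and it was called in 1 of them. Its level in Casp8-/- Tnfr1-/- livers exceeded that in WT livers, beside 5.80% of all genes called in either direction, 5.10% higher and 0.702% lower. A gene was called when the edgeR quasi-likelihood p, after Benjamini-Hochberg adjustment over all genes, was under 0.05. The comparisons share livers, since the same 3 Casp8-/- Tnfr1-/- livers enter 3 of them and the same WT livers enter 3. Against Tnfr1-/- livers 0 of 8 were called, beside 2.17% of all genes. Against Casp8-/- Mlkl-/- livers 0 of 8 were called, beside 1.65%. Between Casp8-/- Mlkl-/- and WT livers 0 of 8 were called, beside 0.00580%, and between Tnfr1-/- and WT livers 0 of 8, beside 0%. At an unadjusted edgeR p under 0.05, 1, 1, 4, 0 and 0 of the 8 passed in the same order, beside 24.6%, 16.3%, 15.3%, 5.63% and 1.08% of all genes. In a second description, all 3 Casp8-/- Tnfr1-/- livers lay outside the range of the other 8 livers for 2 of the 8 genes, Ch25h above and Hmgcs1 below, beside 10.8% of all genes outside, 7.43% above and 3.32% below.

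Ch25h (ENSMUSG00000050370, a gene of 1 exon on chromosome 19, 34473778 to 34475164, minus strand) was barely detected in the control livers. It measured 0.230, 0.252 and 0.394 CPM in WT livers, from 6 to 10 counts each. It measured 0.0821 and 0.0760 CPM in Tnfr1-/- livers, from 3 and 2 counts. The Casp8-/- Mlkl-/- livers had 0.203, 0.320 and 0.344 CPM. In Casp8-/- Tnfr1-/- livers it rose to 1.10, 1.34 and 34.7 CPM, so that all 3 stood above every control liver and replicate 3 stood far above the other two. The log2 fold change against WT was 5.37 ± 1.30 (SE, edgeR adjusted p = 0.0416), higher in 3 of 3 livers. It was not called with limma-voom (3.31, adjusted p = 0.272) or with only these 2 genotypes fitted (edgeR adjusted p = 0.156). Against Tnfr1-/- livers it was 7.20 ± 1.77 (edgeR adjusted p = 0.0778), a size that depends on the prior count because those livers held 3 and 2 counts. Casp8-/- Mlkl-/- livers gave 5.38 ± 1.30 (edgeR adjusted p = 0.0797), and neither comparison was called. Of the 50-base stretches of Ch25h, 8.22% occur in 1 other gene, the antisense Gm26902, whose reads there cannot be told apart from its own if counting ignored strand.

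The size of the Ch25h difference rested on replicate 3, but its direction did not. Pooled over livers and divided by library size, the Casp8-/- Tnfr1-/- level was 29.5 times the WT level (exact 95% interval 19.3 to 47.3) with replicate 3 and 4.15 times (2.55 to 7.01) without it. Against Casp8-/- Mlkl-/- livers the ratio was 29.4 (19.7 to 45.7) with that liver and 4.14 (2.60 to 6.79) without it. Against the 5 counts of the Tnfr1-/- livers the ratio was 108 (46.2 to 335) and 15.3 (6.26 to 48.3). These intervals cover counting error only. Tnfr1-/- livers themselves held 0.272 times the WT level (0.0804 to 0.736), a difference that the test across livers did not call (edgeR adjusted p = 1). Casp8-/- Mlkl-/- livers held 25 counts and WT livers 22, with an interval of the ratio from 0.543 to 1.87.

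Leaving out single livers, the Ch25h log2 fold change against WT ran from 2.05, without Casp8-/- Tnfr1-/- replicate 3, to 5.92, without replicate 1. It passed the threshold in 4 of 11 such fits. It did not pass without any 1 of the 3 WT livers, either Tnfr1-/- liver, or Casp8-/- Mlkl-/- replicate 2 or 3, where edgeR's adjusted p was 0.0631 to 0.162. Without Casp8-/- Tnfr1-/- replicate 3 the adjusted p was 0.00708. With both livers that stood apart left out, a fit chosen after seeing the data, Ch25h was called higher in all 3 comparisons. Its log2 fold change was then 2.06 against WT (edgeR adjusted p = 0.00106), 3.88 against Tnfr1-/- livers (edgeR adjusted p = 1.04e-04) and 1.88 against Casp8-/- Mlkl-/- livers (edgeR adjusted p = 0.00626), beside 31.3%, 23.2% and 18.1% of all genes called in that fit (17.8%, 13.9% and 12.0% higher).

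**Figure D1:**
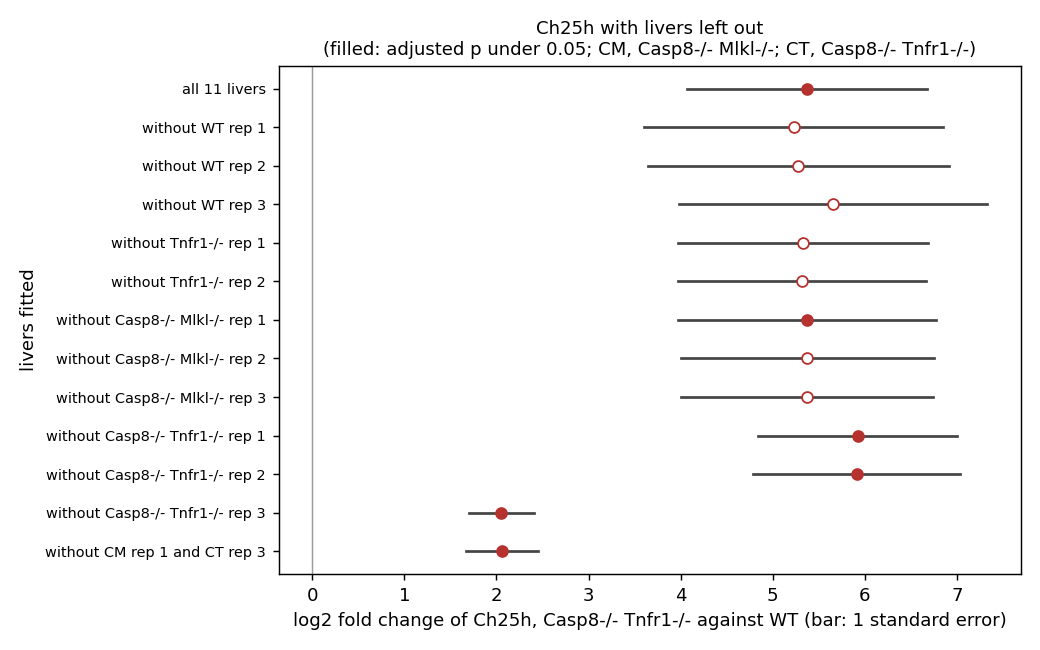
Log2 fold change of Ch25h in Casp8-/- Tnfr1-/- against WT livers (horizontal axis, bars 1 standard error) with all 11 livers, with each liver left out and with both livers that stood apart left out (vertical axis). The value fell from 5.37 to about 2.05 in the fits without Casp8-/- Tnfr1-/- replicate 3 and stayed above 0 in all of them; filled points have an adjusted p under 0.05.

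Interferon-stimulated genes were highest in the same livers as Ch25h. All 12 of a list of interferon-stimulated genes lay above the range of the other 8 livers in all 3 Casp8-/- Tnfr1-/- livers. Against WT 12 of 12 were called higher, beside 5.10% of all genes. The list holds Zbp1, Ifit1 and Isg15, which the study reported as elevated in these livers. It was chosen with earlier results of these data known, so these counts are descriptions. Among the 12 genes, Cxcl10, an interferon-induced chemokine, rose by 4.38 on the log2 scale (edgeR adjusted p = 5.86e-06). The 12 genes summed to 146 to 506 CPM in Casp8-/- Mlkl-/- livers and to 80.4 to 98.6 in WT livers. In that comparison all 12 were positive, with a median log2 fold change of 1.31, and none was called. Without the pair of livers that stood apart 8 of 12 were called higher there, beside 3.23% of all genes. Ch25h held 25 counts in Casp8-/- Mlkl-/- livers and 22 in WT livers. Neutrophil markers summed to 5338 to 14529 CPM in Casp8-/- Tnfr1-/- livers and to 1154 to 3431 in the other 8, and 4 of 10 (S100a8, S100a9, Ltf and Ngp) were called higher against WT and lay above the other 8 livers in all 3. In replicate 3, where Ch25h was highest, 4 others of the list (Mpo, Elane, Prtn3 and Ctsg) were at their lowest of all 11 livers. Mpo there was at 53.4 CPM beside 336 to 484 in WT livers and Prtn3 at 35.4 beside 64.8 to 106. In replicates 1 and 2 the same 4 were above all other livers, with Mpo at 672 and 819 CPM and Prtn3 at 173 and 259. Without the pair of livers that stood apart, 10 of 10 neutrophil markers were called higher against WT, beside 17.8% of all genes. Replicate 3 also had summed striated muscle markers of 1519 CPM (14.0 to 35.9 elsewhere), erythroid markers of 186319 (43756 to 72914) and endothelial markers of 753 (370 to 569). Casp8-/- Tnfr1-/- replicates 1 and 2 had instead the lowest erythroid sums of the 11 livers, at 43756 and 44444 CPM. Macrophage markers summed to 339 to 675 CPM in Casp8-/- Tnfr1-/- livers and 552 to 1741 in the others, with 1 of 12 called higher (Cd68) and 2 lower (Clec4f and Marco) against WT, beside 5.10% and 0.702% of all genes. Without the pair 3 of 12 were higher and 6 lower against WT, beside 17.8% and 13.5% of all genes. Against Tnfr1-/- livers that fit gave 3 higher and 6 lower, beside 13.9% and 9.30%. Against Casp8-/- Mlkl-/- livers it gave 2 higher and 6 lower, beside 12.0% and 6.10%. The part of these cells in the level of Ch25h was not tested, and a change in the number of cells of a type cannot be told apart from a change in RNA per cell. The 5 genes with the highest Pearson's r with Ch25h over the 11 livers were Fkbp10 (0.992), Uba7 (0.987), D10Wsu102e (0.984), Efemp2 (0.983) and Rlim (0.982). These values are descriptions, and they too include replicate 3, in which Uba7 stood at 1421 CPM beside 121 to 315 in the others.

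Hmgcs1 (ENSMUSG00000093930, chromosome 13, 119690379 to 119708260, plus strand) encodes the synthase that makes HMG-CoA at the head of the pathway. It was the most abundant of the 8 per length in WT livers, at 171 ± 4.96 CPM per kb (SD, n = 3). The WT livers had 578, 612 and 599 CPM and the Tnfr1-/- livers 553 and 581. The Casp8-/- Mlkl-/- livers had 994, 586 and 526 CPM. The Casp8-/- Tnfr1-/- livers had 477, 490 and 487 CPM, so all 3 lay below the other 8. The log2 fold change against WT was -0.30 ± 0.22 (SE, edgeR adjusted p = 0.413), with a 95% interval from -0.79 to 0.20. With both livers that stood apart left out it was -0.29 ± 0.07 (edgeR adjusted p = 0.00584), called lower beside 13.5% of all genes. Against Tnfr1-/- livers that fit gave -0.21 (edgeR adjusted p = 0.0564) and against Casp8-/- Mlkl-/- livers -0.19 (edgeR adjusted p = 0.104). About 11.6% of its 50-base stretches occur in other genes, chiefly the antisense Gm48342.

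Sqle (ENSMUSG00000022351, chromosome 15, 59315077 to 59331192, plus strand) encodes squalene epoxidase, the first oxygen-requiring step. It measured 154, 157 and 146 CPM in WT livers, 136 and 133 in Tnfr1-/- livers and 224, 158 and 151 in Casp8-/- Mlkl-/- livers. In Casp8-/- Tnfr1-/- livers it measured 148, 142 and 110 CPM, and only replicate 3 fell below the other 10 livers. Lss (ENSMUSG00000033105, chromosome 10, 76531588 to 76557138, plus strand) encodes lanosterol synthase, which closes the sterol rings. It measured 227, 210 and 177 CPM in WT, 204 and 202 in Tnfr1-/-, 475, 189 and 196 in Casp8-/- Mlkl-/- and 180, 171 and 163 in Casp8-/- Tnfr1-/- livers. The Casp8-/- Tnfr1-/- livers overlapped WT replicate 3. The log2 fold changes against WT were -0.19 ± 0.18 (SE) for Sqle and -0.25 ± 0.31 for Lss, and neither was called. Against Casp8-/- Mlkl-/- livers they were -0.41 for Sqle (edgeR adjusted p = 0.307) and -0.74 for Lss (edgeR adjusted p = 0.304), and Hmgcs1 was at -0.53 (edgeR adjusted p = 0.294). Without the livers that stood apart these were -0.08, -0.12 and -0.19.

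Fdps (ENSMUSG00000059743, chromosome 3, 89093588 to 89101959, minus strand) and Idi1 (ENSMUSG00000058258, chromosome 13, 8885501 to 8892451, plus strand) make farnesyl diphosphate and isomerise isopentenyl diphosphate. Both had low counts. Fdps measured 3.55 to 4.34 CPM in WT, 3.61 and 3.67 in Tnfr1-/-, 2.30 to 6.81 in Casp8-/- Mlkl-/- and 3.24 to 4.33 in Casp8-/- Tnfr1-/- livers. Idi1 measured 1.62 to 2.84 CPM in WT, 1.53 and 2.28 in Tnfr1-/-, 1.72 to 3.53 in Casp8-/- Mlkl-/- and 1.54 to 1.69 in Casp8-/- Tnfr1-/- livers. The Casp8-/- Tnfr1-/- livers overlapped all 3 other groups for Fdps. For Idi1 they overlapped the WT and Tnfr1-/- livers and lay below the Casp8-/- Mlkl-/- livers. Their values are uncertain, since 26.2% of the 50-base stretches of Fdps and 25.3% of those of Idi1 occur in other genes, such as Gm43738 and Gm13502, and only uniquely mapped reads were kept. The log2 fold changes against WT were -0.07 ± 0.35 (SE) and -0.46 ± 0.34.

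Srebf2 (ENSMUSG00000022463, chromosome 15, 82147181 to 82205379, plus strand) is the regulator of the pathway. It measured 226, 216 and 192 CPM in WT livers, 176 and 193 in Tnfr1-/- livers, 206, 217 and 213 in Casp8-/- Mlkl-/- livers and 180, 187 and 170 in Casp8-/- Tnfr1-/- livers. The Casp8-/- Tnfr1-/- livers lay below all WT and all Casp8-/- Mlkl-/- livers but overlapped the Tnfr1-/- livers. Its log2 fold changes were -0.24 ± 0.12 against WT (SE, edgeR adjusted p = 0.243), -0.24 ± 0.12 against the Casp8-/- Mlkl-/- group (edgeR adjusted p = 0.371) and -0.05 ± 0.13 against Tnfr1-/- livers (edgeR adjusted p = 0.868). The 95% interval against WT ran from -0.51 to 0.03. Per length, Srebf2 (42.4 ± 3.45 CPM per kb) and Lss (43.8 ± 5.53) did not differ beyond their spread in WT livers (SD, n = 3), below Sqle (55.1 ± 2.10) and above Insig1 (29.6 ± 2.79), Fdps (2.72 ± 0.27), Idi1 (0.740 ± 0.202) and Ch25h (0.216 ± 0.0661). The levels of Fdps and Idi1 in this order are uncertain, since 26.2% and 25.3% of their 50-base stretches occur in other genes.

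Insig1 (ENSMUSG00000045294, chromosome 5, 28071363 to 28078662, plus strand), which holds SREBP2 back and is itself one of its targets, was set apart by single livers. WT livers had 87.5, 79.9 and 72.4 CPM, and Tnfr1-/- livers 71.7 and 69.7. Casp8-/- Mlkl-/- livers had 347, 67.7 and 50.6 CPM, and Casp8-/- Tnfr1-/- livers 72.0, 72.7 and 258. The high values were those of Casp8-/- Mlkl-/- replicate 1 and Casp8-/- Tnfr1-/- replicate 3, and the other 9 livers spanned 50.6 to 87.5. The log2 fold change of Casp8-/- Tnfr1-/- against WT livers was 0.75 ± 0.71 (SE, edgeR adjusted p = 0.516) with all livers and -0.13 ± 0.10 (edgeR adjusted p = 0.394) without that pair. That of Casp8-/- Mlkl-/- against WT was 0.95 ± 0.71 (edgeR adjusted p = 0.919) and turned to -0.43 ± 0.11 (edgeR adjusted p = 0.0303, called lower beside 6.40% of all genes called, 3.23% higher and 3.18% lower) without it. In that fit 0 of the 8 genes were called in Tnfr1-/- against WT livers, beside 0.678% of all genes, 0.348% higher and 0.330% lower.

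**Figure D2:**
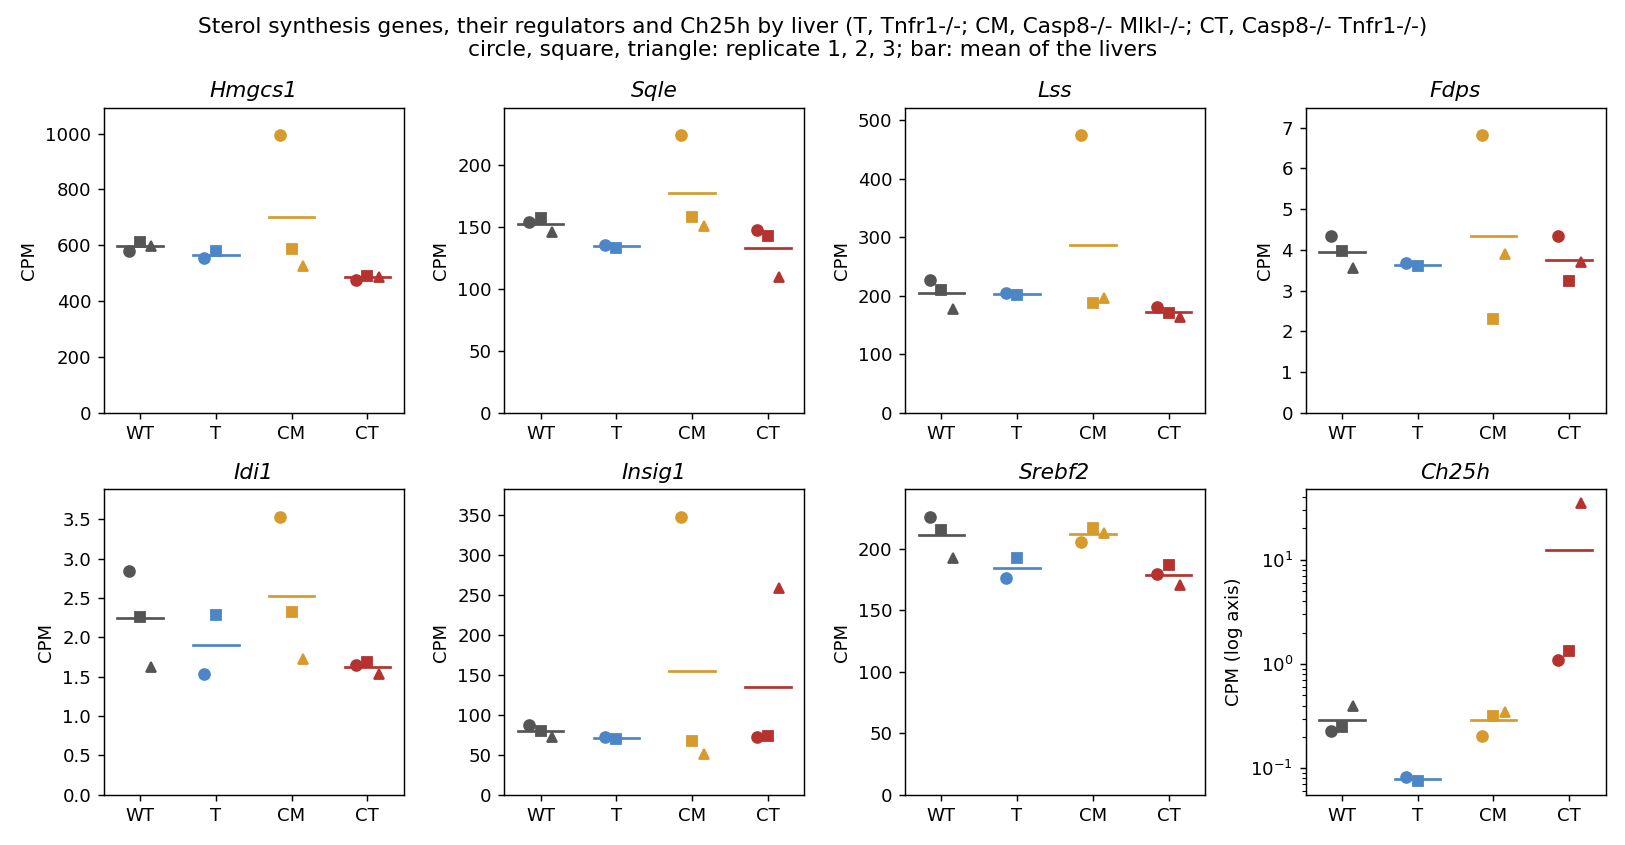
CPM of the 8 genes (vertical axes, linear from 0, but a log axis for Ch25h) in each of the 11 livers by genotype (horizontal axes), with a bar at the mean of each group. Ch25h was above every control liver in all 3 Casp8-/- Tnfr1-/- livers and reached 34.7 CPM in replicate 3, whereas 6 of the other 7 genes were highest in Casp8-/- Mlkl-/- replicate 1 and Srebf2 was highest in WT replicate 1.

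**Figure D3:**
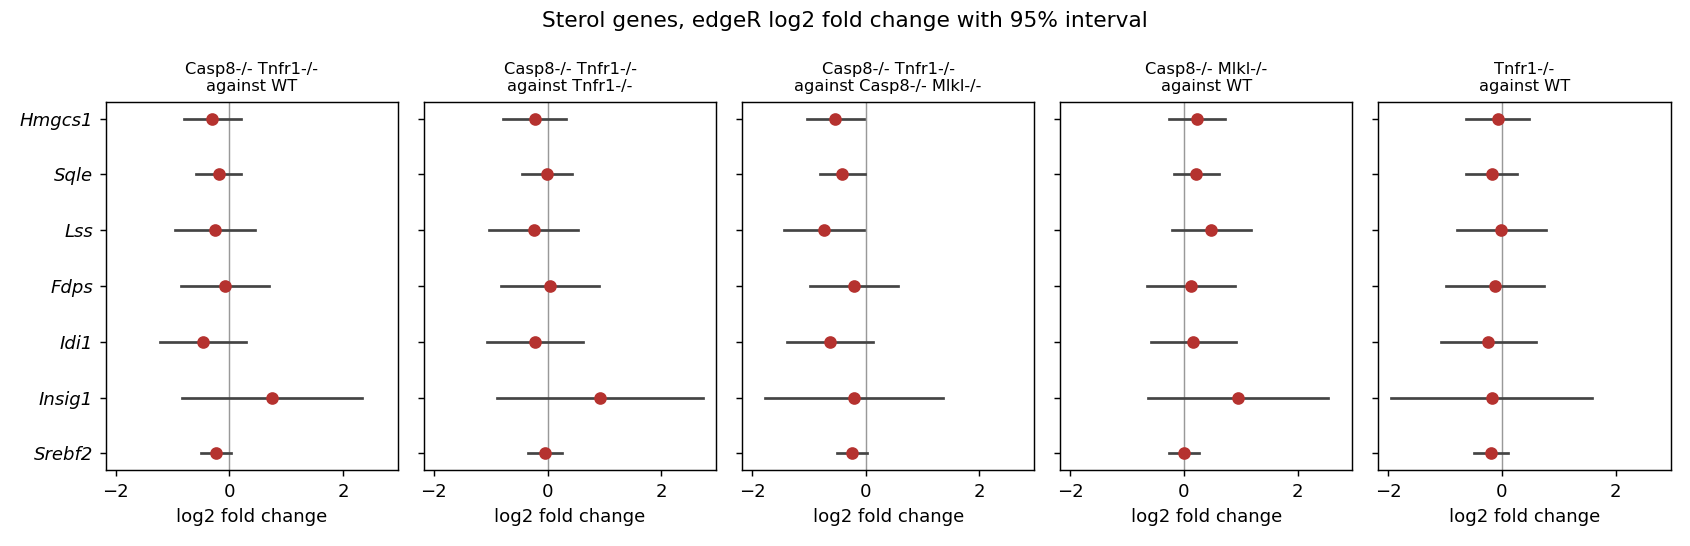
Log2 fold change (horizontal axes) with its 95% interval for the 7 sterol genes (vertical axis) in each of the 5 comparisons. Insig1 had the widest interval in each comparison, from -0.83 to 2.33 for Casp8-/- Tnfr1-/- against WT, and the intervals of Hmgcs1, Sqle and Lss against Casp8-/- Mlkl-/- livers lay below 0, although none passed after adjustment.

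Casp8-/- Mlkl-/- replicate 1 carried the highest value of 6 of the 7 sterol genes and of 19 of the 22 cholesterol synthesis enzymes examined, beside 16.5% of all genes. In that liver Lss was at 2.32 times the WT mean, Insig1 at 4.34 times and Hmgcs1 at 1.67 times, while Srebf2 was at 0.973 times. Its hepatocyte marker Alb was at 124635 CPM, where the other 10 livers had 22881 to 47186. The part of hepatocyte content in these levels was not tested. Casp8-/- Tnfr1-/- replicate 3 carried the lowest value of 12 of the 22 enzymes, beside 38.8% of all genes. Over the 11 livers, Nsdhl (0.976), Tmem135 (0.966), Cyp2c69 (0.964), Urah (0.962) and Btd (0.955) had the highest Pearson's r with the mean of Hmgcs1, Sqle, Lss, Fdps, Idi1 and Insig1, and of them Nsdhl is an enzyme of the pathway. The r between Hmgcs1 and Lss was 0.938 over 11 livers and 0.512 over the 9 without that pair, values that are descriptions only.

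The other 17 cholesterol synthesis enzymes, a list chosen beside the members, gave 0 of 17 called by edgeR in each of the 5 comparisons with all livers. At an unadjusted edgeR p under 0.05, 2 passed against WT, 0 against Tnfr1-/- and 3 against Casp8-/- Mlkl-/- livers, beside 24.6%, 16.3% and 15.3% of all genes, and DESeq2 called 1 against WT. Against WT their median log2 fold change was -0.26 in Casp8-/- Tnfr1-/- livers, where that of all genes was -0.00, and 14 of 17 values were negative. Tnfr1-/- livers against WT had a median of -0.18, with 15 of 17 negative. Casp8-/- Mlkl-/- livers against WT had 0.14, with 2 of 17 negative. Against Tnfr1-/- livers the Casp8-/- Tnfr1-/- median was -0.08, with 11 of 17 negative. Among the Casp8-/- Tnfr1-/- values against WT furthest from 0 was that of Mvk, mevalonate kinase, at -0.69 ± 0.23 (SE, edgeR adjusted p = 0.107). In the fit without the pair of livers that stood apart, 7 of 17 were lower against WT and 0 higher, beside 13.5% of all genes lower. The 7 included, named after their values were seen, Lbr (-0.45), Fdft1 (-0.45), Mvk (-0.43), Msmo1 (-0.30), Tm7sf2 (-0.29) and Acat2 (-0.27), with edgeR adjusted p from 0.00126 to 0.0309. The list's median was then -0.17, beside 0.01 for all genes. In that fit the median against WT was -0.18 in Tnfr1-/- livers (15 of 17 negative) and -0.11 in Casp8-/- Mlkl-/- livers (16 of 17 negative). Casp8-/- Tnfr1-/- against Tnfr1-/- livers gave 0.01 (6 of 17 negative). In Casp8-/- Tnfr1-/- against WT livers the same fit gave 5 of 12 hepatocyte markers lower and 1 higher. All 10 of 10 erythroid markers were lower there, beside 13.5% of all genes lower and 17.8% higher. The part of cell content in the levels of the enzymes was not tested. In that fit 3 of the 17 enzymes were lower and 1 higher (Mvd) against Tnfr1-/- livers, beside 9.30% of all genes lower and 13.9% higher. Against Casp8-/- Mlkl-/- livers edgeR called 0 of 17 in that fit, beside 6.10% of all genes lower and 12.0% higher. In Tnfr1-/- against WT livers the same fit gave 1 of 17 lower, Cyp51 at -0.34 (edgeR adjusted p = 0.0431), beside 0.330% of all genes lower.

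**Figure D4:**
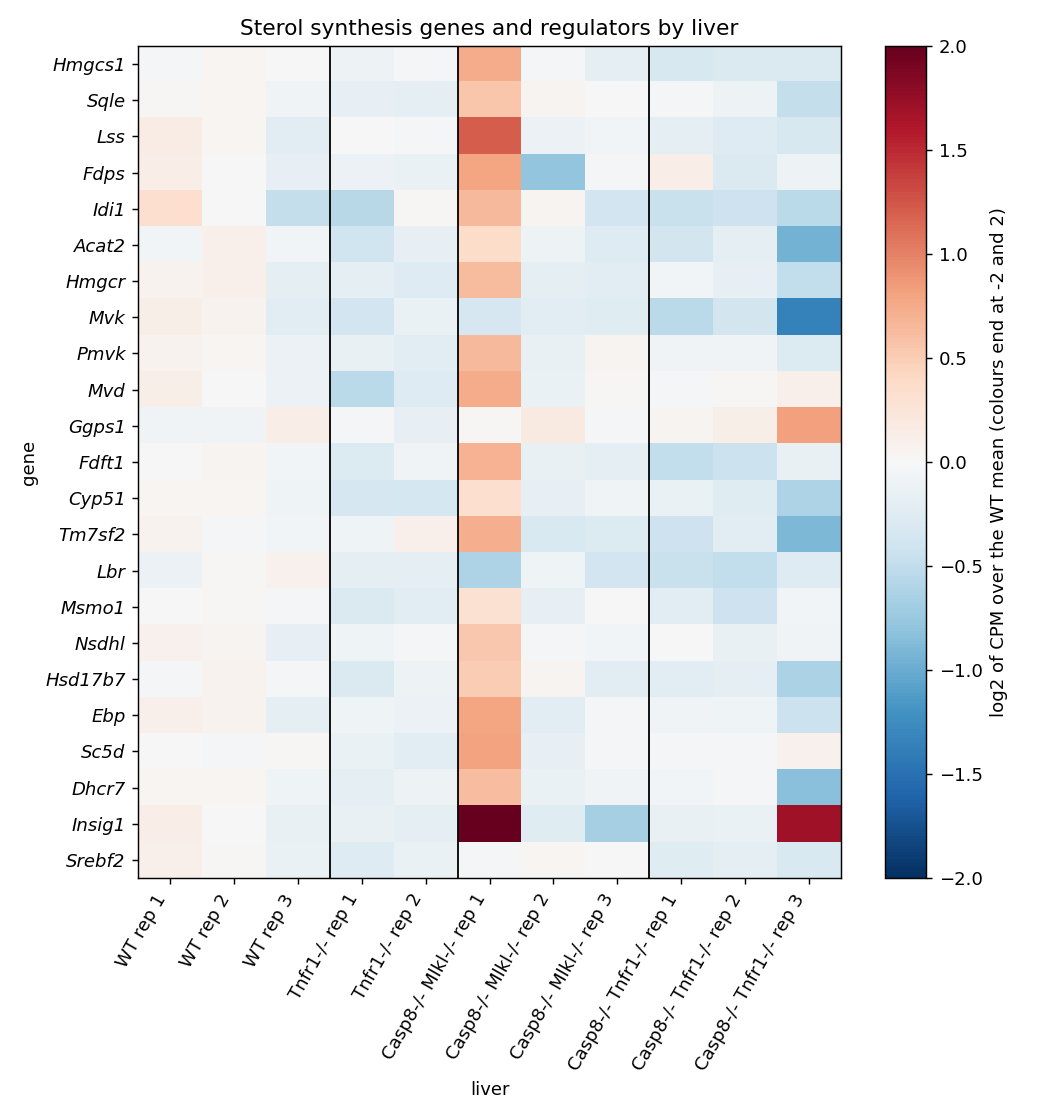
Log2 ratio of CPM to the WT mean (colour, ending at -2 and 2) for cholesterol synthesis enzymes, Insig1 and Srebf2 (rows) in the 11 livers (columns). Casp8-/- Mlkl-/- replicate 1 held the highest value of most enzymes, and Insig1 was raised in that liver, at 4.34 times the WT mean, and in Casp8-/- Tnfr1-/- replicate 3, at 3.23 times.

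Few genes that respond to or handle sterols were called with all livers in the fit. Of 11 genes of sterol regulation and uptake, 10 of SREBP1 and fatty acid synthesis, 6 tested oxysterol and bile acid enzymes and 4 of cholesterol esterification and oxysterol sensing, none was called against WT by edgeR, and at an unadjusted p under 0.05 the counts were 1, 1, 2 and 2, beside 5.80% of all genes called and 24.6% under that p. Of 9 genes of LXR and cholesterol efflux 1 was lower, beside 0.702% of all genes, namely Mylip, which marks the LDL receptor for degradation. It measured 42.8, 43.4 and 52.8 CPM in WT livers and 31.8, 31.1 and 33.4 in Casp8-/- Tnfr1-/- livers, below all 8 other livers, with a log2 fold change of -0.53 ± 0.13 (SE, edgeR adjusted p = 0.0384). That call was kept in 2 of 11 fits with 1 liver left out, those without Casp8-/- Mlkl-/- replicate 1 and Casp8-/- Tnfr1-/- replicate 3. Values near the threshold were those of Gpr183, the receptor for dihydroxylated oxysterols, at 1.36 ± 0.36 (edgeR adjusted p = 0.0563), and of Npc1, which exports cholesterol from lysosomes, at 0.58 ± 0.17 (edgeR adjusted p = 0.0813). Cyp7b1, which further hydroxylates the product of Ch25h, was at 1.88 ± 0.65 (edgeR adjusted p = 0.119). Against Tnfr1-/- livers the values furthest from 0 in these lists included Cyp7b1 at 2.48, Me1, which supplies NADPH for lipid synthesis, at 1.85, Gpr183 at 1.05 and Abcg5, a sterol exporter, at -0.97. Against Casp8-/- Mlkl-/- livers they included Cyp7a1, the rate-limiting enzyme of bile acid synthesis, at -3.68, Gpr183 at 1.58 and Me1 at 1.07, and none of these was called. Cyp7a1 measured 55.5, 1.54 and 4.17 CPM in Casp8-/- Mlkl-/- livers and 1.89, 2.72 and 0 in Casp8-/- Tnfr1-/- livers. Its high value was that of Casp8-/- Mlkl-/- replicate 1, which stood apart.

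Without the livers that stood apart, 3 of the 9 genes of LXR and cholesterol efflux were higher and 2 lower against WT, with a median log2 fold change of -0.19, beside 17.8% and 13.5% of all genes. Of sterol regulation and uptake 2 of 11 were higher and 1 lower, and of esterification and oxysterol sensing 2 of 4 were higher and 0 lower. Abcg1, a cholesterol exporter, rose by 0.73 ± 0.09 (SE, edgeR adjusted p = 4.18e-05), Soat1, which esterifies cholesterol, by 0.51 ± 0.08 (edgeR adjusted p = 1.87e-04) and Npc1 by 0.42 ± 0.07 (edgeR adjusted p = 3.03e-04). Gpr183 rose by 0.99 ± 0.26 (edgeR adjusted p = 0.0107). Mylip fell by 0.54 (edgeR adjusted p = 4.49e-04). These genes are named after their values were seen. Abcg1 measured 29.8 and 31.9 CPM in Casp8-/- Tnfr1-/- replicates 1 and 2 and 16.9 to 21.1 in the 7 other livers of that fit.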

How the data were processed

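RNA from 11 fetal livers was sequenced with single-end reads, aligned by the authors with GSNAP to GRCm38 (mm10), and counted per gene over exons from uniquely mapped reads. The deposited values are raw counts, beside RPKM values that the authors made by dividing counts by gene length and library size, which were not used. The counting program, annotation release and use of strand are not given in the sources used here, and the labels and the study's methods name different library kits and sequencers. Of 52636 genes, 52403 matched GENCODE release M21, which gave names and positions. Here counts were tested with edgeR 4.0.16 (quasi-likelihood, TMM, filterByExpr with a minimum count of 10, genotype as the only term, all 11 livers, Benjamini-Hochberg adjustment over 17243 genes) in R 4.3.3. The study itself used limma. CPM values divide counts by TMM-scaled library sizes. Alternatives used DESeq2 1.42.0 and limma 3.58.1. The fits were tested on simulated data. No pair of livers agreed within sampling noise (chi-square per degree of freedom at least 6.03). Named genes were the 8 members and, from each list and comparison, the called genes with the smallest p (up to 6 enzymes, 3 otherwise) or else the 2 furthest from 0. Some genes of the lists are counted but not reported by name here. The members and lists were chosen with earlier results of these data known.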

Additional observations from a re-analysis of the deposited data

How the results depend on the processing

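A pair of fits was added after seeing the data, one without the livers that stood apart (Casp8-/- Mlkl-/- replicate 1 and Casp8-/- Tnfr1-/- replicate 3) and one with limma-voom and quality weights. The comparisons below run in the order Casp8-/- Tnfr1-/- against WT, against Tnfr1-/- and against Casp8-/- Mlkl-/- livers, then Casp8-/- Mlkl-/- and Tnfr1-/- against WT. Members called against WT, 1 with all livers, were 0 with limma-voom, with only the 2 genotypes and with the replicate block, and 2 and 3 with the added fits. Against Tnfr1-/- and against Casp8-/- Mlkl-/- livers 1 was called with no filter on low counts and 1 with each added fit, and without the pair 1 was called in Casp8-/- Mlkl-/- against WT. DESeq2 gave Ch25h no adjusted p, so its members are not counted. The 17 other enzymes had 1 called against WT by DESeq2 and 7 and 8 by the added fits, 4 and 4 against Tnfr1-/- livers, and in Tnfr1-/- against WT 1 with only the 2 genotypes and 1 and 2 by the added fits. All genes called, 1000, 374, 285, 1 and 0 in order, were 2364, 1269, 941 and 90 by DESeq2 in the first 4, 486, 56, 11 with only the 2 genotypes and 259 for Tnfr1-/- against WT, 5314, 3931, 3067, 1086 and 115 without the pair, and 5279, 4325, 2709, 1042 and 271 with quality weights. For Casp8-/- Mlkl-/- against WT, DESeq2 size factors gave 3 and no filter 14. Leaving out 1 liver gave 281 to 1674, 30 to 883, 83 to 564, 0 to 27 and 0 to 0 genes (lowest without WT replicate 3, Tnfr1-/- replicate 1 and Casp8-/- Mlkl-/- replicate 3 in the first 3, highest without Casp8-/- Tnfr1-/- replicate 3, the same liver and Casp8-/- Mlkl-/- replicate 1), 0 to 1 members in the first 3 comparisons and 2 to 3 members outside the range of the other livers.

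The replicate numbers showed no clear pairing of the livers (15 pairs, r from -0.297 to 0.275, 5 over 0.1, 6 of 11 livers closest to their own number). With groups of 2 or 3 livers, these values cannot settle whether the numbers mark pairs. With the replicate number as a block, 572, 189, 144 and 0 genes were called in the first 4 comparisons, Ch25h against WT was 4.15 (edgeR adjusted p = 0.0803), Ch25h in Casp8-/- Mlkl-/- against WT reversed to 0.11 and Sqle against Tnfr1-/- livers to 0.067. Ch25h against WT ran from 2.06 to 5.41 over the other alternatives, with 3.31 by limma-voom (adjusted p = 0.272).

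Directions also reversed as follows, none with a call except Insig1 in Casp8-/- Mlkl-/- against WT without the pair. By limma-voom, Insig1 against Casp8-/- Mlkl-/- livers became 0.063 and Fdps in Casp8-/- Mlkl-/- against WT -0.049. Without the pair and with quality weights, in that order, Insig1 against WT became -0.13 and -0.14 and against Casp8-/- Mlkl-/- livers 0.30 and 0.33, Sqle against Tnfr1-/- livers 0.13 and 0.11, and Fdps against Casp8-/- Mlkl-/- livers 0.32 and 0.22. In Casp8-/- Mlkl-/- against WT they gave Hmgcs1 -0.10 and -0.11, Lss -0.086 and -0.065, Fdps -0.37 and -0.28, Idi1 -0.14 and -0.24, Insig1 -0.43 and -0.47, and Ch25h 0.18 and 0.27. Srebf2 against Tnfr1-/- livers became 0.0048 without the pair, and Srebf2 in Casp8-/- Mlkl-/- against WT -0.00088 with quality weights. With 1 liver left out, Fdps against WT ran from -0.19 to 0.038, Insig1 from -0.14 to 1.05, Sqle against Tnfr1-/- livers from -0.091 to 0.11, Fdps from -0.068 to 0.16, Idi1 from -0.50 to 0.075 and Srebf2 from -0.12 to 0.010. Against Casp8-/- Mlkl-/- livers Fdps ran from -0.49 to 0.29 and Insig1 from -1.10 to 1.18. In Casp8-/- Mlkl-/- against WT Hmgcs1 ran from -0.10 to 0.40, Lss from -0.087 to 0.71, Fdps from -0.36 to 0.43, Idi1 from -0.14 to 0.37, Insig1 from -0.43 to 1.37, Srebf2 from -0.064 to 0.048 and Ch25h from -0.16 to 0.26, and in Tnfr1-/- against WT Lss from -0.10 to 0.077 and Idi1 from -0.55 to 0.023. The depth limits Ch25h most, with 2 to 11 counts in each control liver.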
